A study of Rattus norvegicus with 9 samples.

Results

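Axon injury transcription factors are DNA-binding proteins whose genes are switched on in the cell bodies of sensory neurons after a peripheral axon is damaged. The 8 genes described here are Atf3, Jun, Sox11, Klf6, Klf4, Myc, Cebpd and Atf5. They were taken by symbol from 20413 genes listed in a table of RNA-Seq values for rat dorsal root ganglia (DRGs), the clusters of sensory neuron cell bodies beside the spinal cord, and each symbol matched 1 gene. All 8 passed the filter on low values, as did 17187 genes in all.

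Male Sprague Dawley rats entered the study at 8 to 10 weeks of age, and ipsilateral L4-6 DRGs were collected at day 10 after ischemia or sham treatment from 3 groups of 3 rats, with 1 library for each rat and 9 in all. In the chronic post-ischemia pain (CPIP) group, a tight O-ring stopped blood flow to 1 hind paw for 3 h and was then cut off to let blood return. The CPIP+EA group had the same ischemia and electroacupuncture (EA) at 100 Hz for 30 min once a day over 10 days, through needles at the ST36 and BL60 points of both hind limbs. Sham rats, labelled Con in the repository, had the same anesthesia with a cut O-ring around the ankle and no ischemia. The model compresses the ankle and makes the paw ischemic, with no cut of a nerve described, and no group had EA alone.

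After axon damage, a kinase cascade that starts with DLK and runs through the JNK kinases carries a signal to the nucleus, where it phosphorylates c-Jun. c-Jun, the product of Jun, pairs with other leucine zipper proteins such as ATF3 to form AP-1 type dimers. ATF3 is barely made in intact sensory neurons and is widely used to mark neurons whose axon was injured. SOX11, the KLF proteins, MYC, C/EBP delta and ATF5 have been tied to neurite growth, stress responses or survival by other routes. These statements are background and not results of the libraries described here.

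Values are FPKM, the number of fragments of a gene scaled by the length of its transcript and by the depth of its library, so levels may be set side by side between genes. Fold changes were fitted with limma on log2(FPKM + 0.5) over all 17187 genes. A gene was called where its Benjamini-Hochberg adjusted p was under 0.01 and its fold was at least 1.5 in either direction. Markers of sensory neurons were high in every library, with a summed FPKM of 8 genes between 5225.27 and 6833.86. Blood markers varied between libraries of 1 group. CPIP+EA replicate 3 stood apart, with summed values of 586.75 for 5 neutrophil genes and 5021.44 for 5 erythroid genes. In whole ganglia, fewer cells of a type and less RNA per cell cannot be told apart.

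Promoter sequences are shown first, because 3 of the genes that follow carry a recognition sequence of AP-1 or Jun/ATF dimers close to their start. All 8 genes are in the RefSeq gene list, but the set of promoters used here (build GRCr8) held only 4 of them. These were Sox11, Klf6, Klf4 and Atf5, as 250 bases before the start of the gene and the bases after it. The 250 bases were searched on both strands for the AP-1 site TGACTCA, the cAMP response element TGACGTCA and the Jun/ATF site TGACATCA. The last motif was chosen after the sequences had been seen, and no hits overlapped. Each stretch below is written 5′ to 3′ on the strand of the gene, with the motif in capitals:
Sox11, chr6:49738798-49738885, minus strand: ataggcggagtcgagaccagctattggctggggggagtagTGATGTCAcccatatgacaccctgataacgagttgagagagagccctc
Klf6, chr17:69458563-69458650, minus strand: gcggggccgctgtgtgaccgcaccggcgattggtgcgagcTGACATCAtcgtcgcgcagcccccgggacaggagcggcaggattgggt
Atf5, chr1:104434887-104434973, minus strand: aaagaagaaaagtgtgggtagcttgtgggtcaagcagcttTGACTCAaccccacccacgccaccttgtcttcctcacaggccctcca

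In the Sox11 promoter the capitals spell TGATGTCA, the Jun/ATF site read on the other strand, from 51 to 44 bases before the start. In that of Klf6 they spell the same site on the strand of the gene, at 132 to 125 bases before the start. The Atf5 promoter held the AP-1 site at 138 to 132 bases before the start, and none of the 3 motifs was found in this window of Klf4. Among all 33469 promoters in the table, 4.05% held the AP-1 site, 1.59% the cAMP response element and 3.80% the Jun/ATF site. Among the 14988 promoters of tested genes the shares were 3.32%, 2.46% and 1.67%. These matches describe letters only. Of the 3 genes, Sox11 rose after CPIP, whereas the changes of Klf6 and Atf5 did not pass the test, as described below.

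Between CPIP and Sham, Atf3, Jun and Sox11 rose and the other 5 genes did not pass the test. That is 3 of 8 genes called higher, against 0.343% of all genes tested. The 8 genes were chosen with earlier results of these data known, so such shares, here and below, are a description and no independent evidence. The libraries of CPIP lay above those of Sham, with no overlap, for 4 of the 8 genes, the fourth being Klf6, against 7.98% of all genes. The median log2 fold change of the 8 was 0.31, beside -0.01 over all genes. Electroacupuncture changed none of the 8 past the threshold.

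**Figure D1:**
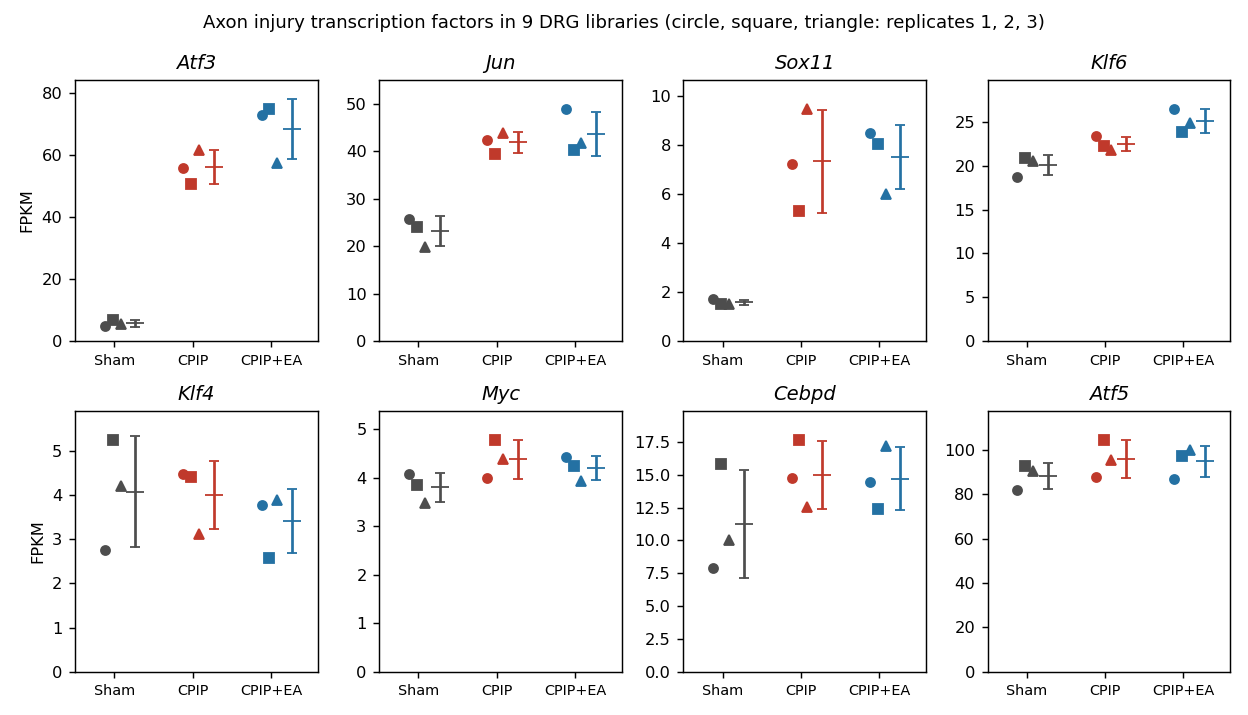
FPKM (vertical axes, each from 0) of the 8 genes in the 3 groups, with 1 point for each library and a horizontal mark with bars for the mean ± SD of 3 libraries. The CPIP and CPIP+EA points of Atf3 (50.51 to 74.87), Jun (39.55 to 48.99) and Sox11 (5.28 to 9.46) all lie above their Sham points, while those of Klf4, Myc, Cebpd and Atf5 overlap them.

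Atf3, the injury marker of the ATF/CREB family, had 4.77, 6.86 and 5.37 FPKM in the Sham libraries 1, 2 and 3. In the CPIP libraries it had 55.88, 50.51 and 61.58 FPKM, and in the CPIP+EA libraries 72.86, 74.87 and 57.37 FPKM. Every CPIP or CPIP+EA library lay above every Sham library by a wide margin, and the CPIP and CPIP+EA libraries overlapped. The group means were 5.67 ± 1.08, 55.99 ± 5.54 and 68.37 ± 9.58 FPKM (SD, n = 3 each). The log2 fold change in CPIP vs. Sham was 3.21 with an SE of 0.14 (9.22-fold, 95% interval 7.38 to 11.53), with an adjusted p of 1.191e-05 in limma. By size of log2 fold change it ranked 8 of 17187 genes, and by p it ranked 3. The call was kept under all 19 alternatives, among them each library left out in turn, with adjusted p of at most 0.0003793.

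In CPIP+EA vs. Sham the log2 fold change of Atf3 was 3.49 ± 0.14 (SE), with an adjusted p of 6.177e-06. Set against CPIP alone, CPIP+EA gave 0.28 ± 0.14, and its 95% interval ran from a 0.97-fold to a 1.52-fold level (unadjusted p = 0.08056, adjusted p = 0.9965, limma). The highest Atf3 values, in CPIP+EA libraries 1 and 2, came with the highest summed neuron markers, 6833.86 and 6604.36 FPKM. CPIP+EA library 3 had 57.37 FPKM of Atf3 and 5592.91 FPKM of neuron markers. In CPIP, library 3 was highest in both, at 61.58 FPKM of Atf3 and 6365.13 FPKM of neuron markers. Sham went the other way, since library 1 had its highest neuron markers, 6201.82 FPKM, and its lowest Atf3, 4.77 FPKM. Set against 1000 FPKM of neuron markers, Atf3 stood at 0.77 to 1.22 in Sham, 8.65 to 9.67 in CPIP and 10.26 to 11.34 in CPIP+EA. That scale was a choice made with the values in view. On it the CPIP and CPIP+EA libraries of Atf3 did not overlap, but the share of all genes without overlap there was not worked out. These ranges are therefore given as a description only. The log2 fold change between the CPIP and CPIP+EA libraries on that scale was 0.22 with an adjusted p of 1 (limma).

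Jun encodes c-Jun, the partner of ATF3 in AP-1 type dimers and the target of the JNK kinases. It was already well expressed in Sham, at 25.78, 24.00 and 19.81 FPKM in libraries 1, 2 and 3. In CPIP it stood at 42.42, 39.55 and 43.80 FPKM, and in CPIP+EA at 48.99, 40.24 and 41.70 FPKM. All 6 CPIP and CPIP+EA libraries lay above all 3 Sham libraries, and the former groups overlapped. Means were 23.20 ± 3.07, 41.92 ± 2.17 and 43.64 ± 4.69 FPKM (SD, n = 3 each).

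Jun rose by a log2 fold change of 0.85 ± 0.11 (SE) in CPIP vs. Sham, a 1.80-fold change with a 95% interval of 1.52 to 2.13 and an adjusted p of 0.00694 (limma). This call lies near the threshold and was lost in 13 of 19 alternatives, with log2 fold changes of 0.74 to 0.93 throughout and adjusted p of at most 0.0423. Without Sham library 1, 2 or 3 the adjusted p in limma was 0.01276, 0.03301 or 0.01781. Leaving out CPIP library 1, 2 or 3 gave 0.04075, 0.02923 or 0.0423, and leaving out CPIP+EA library 2 or 3, which share the estimate of spread, gave 0.0151 or 0.01126. For CPIP+EA vs. Sham the log2 fold change was 0.90 ± 0.11, with an adjusted p of 0.00416 in limma. That call was lost in 10 of 19 alternatives, with adjusted p of at most 0.0263. Among them, the adjusted p was 0.02067 without Sham library 2, 0.01072 without Sham library 3, 0.01145 without CPIP library 1 and 0.01058 without CPIP library 2. Without CPIP+EA library 1, 2 or 3 it was 0.01518, 0.01626 or 0.01137. Over both CPIP groups against Sham, which reuses the same Sham libraries, the log2 fold change was 0.87 ± 0.09 and the adjusted p was 0.00167 (limma), or 0.01125 without Sham library 2.

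In level, Atf3 moved past Jun. For each FPKM of Jun there were 0.19, 0.29 and 0.27 FPKM of Atf3 in the Sham libraries. In CPIP the ratio was 1.32, 1.28 and 1.41, and in CPIP+EA 1.49, 1.86 and 1.38. Jun was thus the more abundant transcript in every Sham library and Atf3 in every other one. Between CPIP+EA and CPIP, Jun differed by a log2 fold change of 0.05 ± 0.11, with a 95% interval from 0.88-fold to 1.23-fold.

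Sox11, an HMG box factor of the SOX family that acts in the growth of developing neurons, was the lowest of the 8 in Sham, with 1.69, 1.49 and 1.52 FPKM in libraries 1, 2 and 3. In CPIP it had 7.22, 5.28 and 9.46 FPKM, and in CPIP+EA 8.46, 8.03 and 5.99 FPKM. The Sham libraries lay close together and below all others, while the CPIP libraries were spread, with a coefficient of variation of 28.6% against 6.88% in Sham. The means were 1.57 ± 0.11, 7.32 ± 2.09 and 7.49 ± 1.32 FPKM (SD, n = 3 each).

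Sox11 rose by a log2 fold change of 1.89 ± 0.20 (SE) in CPIP vs. Sham, a 3.70-fold change with a 95% interval of 2.72 to 5.02 (adjusted p = 0.002415, limma). The ratio of the mean FPKM was larger, 4.67, because the added 0.5 FPKM understates changes of low values. The call was lost in 5 of 19 alternatives with adjusted p of at most 0.01592. In limma the adjusted p was 0.01276, 0.01548 or 0.01438 without Sham library 1, 2 or 3, and 0.01387 without CPIP library 1. In CPIP+EA vs. Sham the log2 fold change was 1.94 ± 0.20 with an adjusted p of 0.001583 (limma), lost in 4 of 19 alternatives, with 0.01108 and 0.01073 without Sham library 2 or 3 and 0.01396 without CPIP+EA library 2. Over both CPIP groups against Sham it was 1.91 ± 0.17, with an adjusted p of 0.0006044 (limma) that kept the call in all 18 alternatives. With CPIP alone as the reference, CPIP+EA gave a log2 fold change of 0.05 ± 0.20, with an interval from 0.76-fold to 1.41-fold.

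In the comparison of CPIP+EA with Sham, the same 3 of 8 genes were called higher, against 0.477% of all genes, and every CPIP+EA library lay above every Sham library for 4 genes, against 8.87% of all genes. Over both CPIP groups, 3 of 8 were called higher, against 0.564% of all genes, and all 6 libraries lay above all Sham libraries for 4 genes, against 4.05%. On the scale of neuron markers all 3 stayed called in each comparison with Sham. That scale lowered the median of all genes to -0.13 (log2) in CPIP+EA vs. Sham, and the calls over all genes then split into 51 higher and 12 lower, in place of 82 and 1. For both CPIP groups the median went to -0.12, with 65 higher and 15 lower in place of 97 and 6.

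Klf6, a zinc finger factor of the KLF family linked to axon growth, showed a small difference that kept 1 order in all libraries. Its values were 18.73, 20.90 and 20.54 FPKM in Sham, 23.38, 22.29 and 21.81 FPKM in CPIP and 26.50, 23.80 and 24.89 FPKM in CPIP+EA. Every CPIP library lay above every Sham library, and every CPIP+EA library above every CPIP library. That order, with no overlap, was met by 59 of 17187 genes, which is 0.343% of them. The log2 fold changes were 0.16 ± 0.07 (SE) in CPIP vs. Sham and 0.31 ± 0.07 in CPIP+EA vs. Sham, and neither passed the test (adjusted p = 0.5166 and 0.06142, limma). For CPIP+EA set against CPIP it was 0.15 ± 0.07 (unadjusted p = 0.0466, adjusted p = 0.9965, limma). At an unadjusted p under 0.05, 1 of the 8 genes, Klf6, differed in this last comparison, against 4.29% of all genes. On the scale of neuron markers the Klf6 libraries of Sham (3.02 to 3.93) and CPIP (3.43 to 3.91) overlapped, as did those of CPIP and CPIP+EA (3.60 to 4.45), so the order of the 3 groups was not kept. The log2 fold change was then 0.07 in CPIP vs. Sham and 0.16 in CPIP+EA vs. Sham (adjusted p = 0.892 and 0.5467, limma), beside medians over all genes of -0.09 and -0.13 on that scale. Relative to these medians Klf6 stood about as far above 0 as on the FPKM scale.

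Klf4, the KLF factor known to hold back axon growth, had 2.75, 5.25 and 4.20 FPKM in Sham, 4.48, 4.41 and 3.11 FPKM in CPIP, and 3.78, 2.58 and 3.88 FPKM in CPIP+EA. The 3 groups overlapped throughout. Its log2 fold change in CPIP vs. Sham was 0.00 ± 0.23 (SE), with an interval from 0.70-fold to 1.44-fold, and its sign turned in 7 of 19 alternatives.

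Cebpd encodes C/EBP delta, a leucine zipper factor of acute stress and inflammation that also answers glucocorticoids. Its values were 7.92, 15.82 and 10.01 FPKM in Sham, 14.78, 17.68 and 12.53 FPKM in CPIP, and 14.48, 12.40 and 17.19 FPKM in CPIP+EA. Sham library 2 reached the range of the CPIP groups, while the other Sham libraries lay below it. The log2 fold change in CPIP vs. Sham was 0.44 ± 0.23 (SE), with an interval from 0.94-fold to 1.95-fold and an adjusted p of 0.6856 (limma). Without Sham library 1, 2 or 3 it was 0.23, 0.71 or 0.39, so its size depended on which Sham library was left out. Within each group, Cebpd was highest in the library with the highest summed neutrophil markers, at 141.47 FPKM in Sham library 2, 234.64 in CPIP library 2 and 586.75 in CPIP+EA library 3, and the erythroid sums peaked in the same libraries. Across groups the order was not kept. CPIP+EA library 3 had less Cebpd than CPIP library 2. Sham library 3, with a neutrophil sum of 105.89 FPKM, had less Cebpd than CPIP library 3. The lowest neutrophil sums, 46.75 FPKM in Sham library 1 and 30.71 in CPIP library 3, came with the lowest Cebpd of those groups, while in CPIP+EA the lowest sum was in library 1 and the lowest Cebpd in library 2. The rats were perfused with saline before the ganglia were taken. The part of blood cells in the level of Cebpd was not tested.

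Within Sham, both Klf4 and Cebpd were highest in library 2 and lowest in library 1. The summed FPKM of 18 immediate early genes, 17 of them listed in the table, was likewise highest in Sham library 2, at 147.18 against 109.16 and 111.54 in libraries 1 and 3. That of 10 glucocorticoid targets was 311.95 in Sham library 2 against 215.42 and 233.03. In the other groups the match was partial. In CPIP+EA, Klf4 and Cebpd were highest in library 3, with 105.79 FPKM of immediate early genes and 227.0 of glucocorticoid targets, while library 1 had 154.93 and 248.13. In CPIP the glucocorticoid targets and Klf4 peaked in library 1, at 333.62 and 4.48 FPKM, and Cebpd in library 2, while both sums, Klf4 and Cebpd were lowest in library 3. Between groups, the sums of glucocorticoid targets in CPIP+EA (223.05 to 248.13 FPKM) lay below those in CPIP (249.92 to 333.62 FPKM). Their median log2 fold change in CPIP+EA vs. CPIP was -0.27, beside 0.01 over all genes. Of the 10, 2 were lower at an unadjusted p under 0.05 in limma, against 4.29% of all genes in either direction. No gene of either list was called in any comparison. Arc, an immediate early gene of synapses, had the smallest p of the first, at 1.27, 1.06 and 0.95 FPKM on average in Sham, CPIP and CPIP+EA (adjusted p = 0.5156 over both CPIP groups, limma). Ddit4, an inhibitor of mTOR signalling, had the smallest of the second, at 40.16, 63.72 and 43.12 FPKM (adjusted p = 0.4849, limma). The part of handling or stress in the levels of Klf4 and Cebpd was not tested.

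Myc, the basic helix-loop-helix factor that drives growth and metabolism with its partner MAX, had 4.08, 3.86 and 3.48 FPKM in Sham, 3.99, 4.79 and 4.38 FPKM in CPIP, and 4.43, 4.25 and 3.94 FPKM in CPIP+EA. The groups overlapped, and the log2 fold change in CPIP vs. Sham was 0.18 ± 0.10 (SE), with an interval from 0.97-fold to 1.33-fold.

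Atf5, a leucine zipper factor of the stress response of mitochondria that is also used in olfactory sensory neurons, was the most abundant of the 8 in every group. It had 81.85, 92.92 and 90.47 FPKM in Sham, 87.67, 104.68 and 95.44 FPKM in CPIP, and 87.09, 97.42 and 100.07 FPKM in CPIP+EA. These ranges overlapped, with a log2 fold change of 0.12 ± 0.09 (SE) in CPIP vs. Sham and an interval from 0.95-fold to 1.24-fold. For Atf5 and Myc the intervals thus leave out a 1.5-fold rise, whereas for Cebpd the interval holds one.

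**Figure D2:**
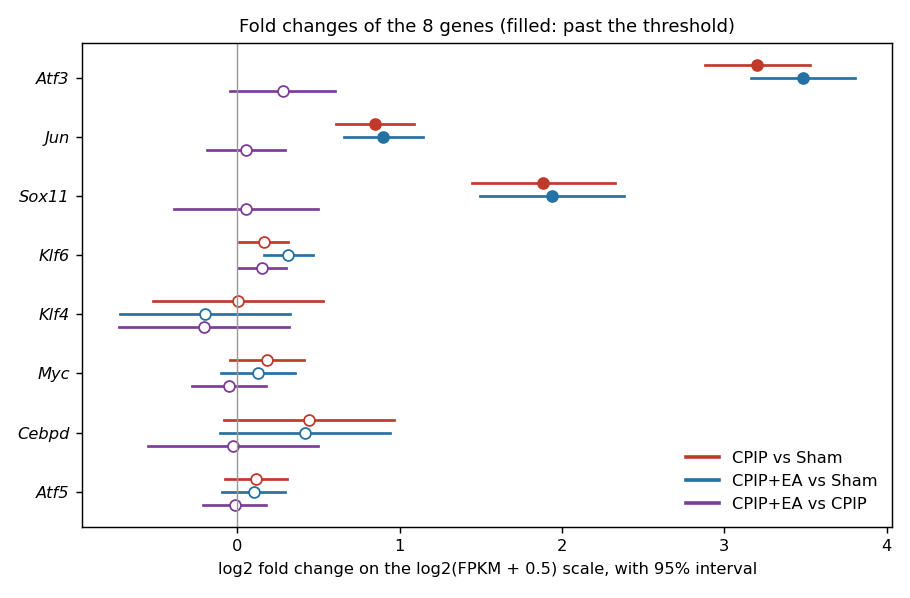
Log2 fold changes (horizontal axis, on the log2(FPKM + 0.5) scale) of the 8 genes in 3 comparisons, as points with 95% intervals from limma, filled where the gene was called. Atf3 (3.21 and 3.49), Sox11 (1.89 and 1.94) and Jun (0.85 and 0.90) are filled in both comparisons with Sham, and all points of CPIP+EA vs. CPIP are open.

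Electroacupuncture was compared with CPIP alone to ask whether it altered the levels of these genes. No gene of the 17187 was called in limma, so 0 of 8 genes were called higher against 0.00% of all genes, while 738 genes had an unadjusted p under 0.05. The libraries lay all higher for 1 of the 8, Klf6, against 4.84% of all genes. Of the 8 log2 fold changes 4 were above 0 and 4 below, from -0.20 for Klf4 to 0.28 for Atf3. Those of Myc, Cebpd and Atf5 were -0.05, -0.03 and -0.01. Each adjusted p was 0.9965. The intervals reached down to 0.97-fold for Atf3, 0.88-fold for Jun and 0.76-fold for Sox11. A p that misses the threshold does not show that CPIP and CPIP+EA were alike, but a drop of Atf3, Jun or Sox11 to the Sham level lies outside these intervals.

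The order of the genes by level changed between Sham and the CPIP groups. In Sham, Atf5 (88.41 FPKM) was followed by Jun (23.20), Klf6 (20.06), Cebpd (11.25), Atf3 (5.67), Klf4 (4.07), Myc (3.81) and Sox11 (1.57). The libraries of Jun and Klf6, of Atf3 and Klf4, and of Klf4 and Myc overlapped, so these neighbours did not differ beyond their spread. In CPIP the order was Atf5, Atf3, Jun, Klf6, Cebpd, Sox11, Myc and Klf4, and Myc and Klf4 alone overlapped among neighbours. CPIP+EA had the same order of means, with no overlap between neighbours. Atf3 thus went from position 5 to position 2 and Sox11 from position 8 to position 6.

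**Figure D3:**
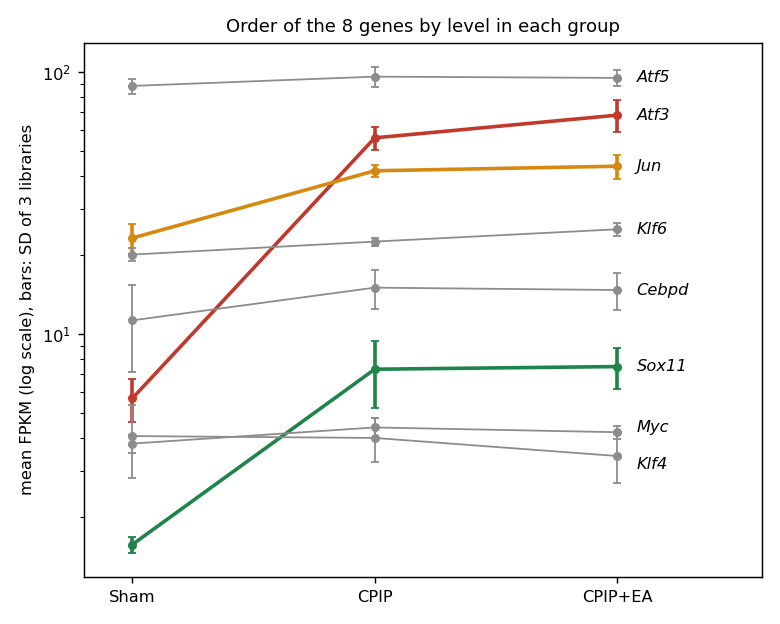
Mean FPKM (log axis) of the 8 genes in Sham, CPIP and CPIP+EA, with bars for the SD of 3 libraries and the genes that rose in color. Atf3 crosses Klf6, Cebpd and Jun between Sham (5.67) and CPIP (55.99), and Sox11 crosses Myc and Klf4.

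The families of the 8 genes were then examined for wider shifts. They comprised 12 AP-1 partners of Jun, 12 ATF/CREB genes, 5 C/EBP genes, 13 KLF genes, 9 SOX genes and 10 genes of the MYC and MAX network, which is 61 relatives in all, each tested. None was called in any of the 4 comparisons in limma, none had an adjusted p under 0.05 in any of them, and none was called under the other scales, filters, pseudocounts and fits or with 1 library left out. At an unadjusted p under 0.05 there were 5 of 61 in CPIP vs. Sham (8.20%, against 8.66% of all genes) and 1 in CPIP+EA vs. CPIP (1.64%, against 4.29%). In CPIP+EA vs. Sham there were 11 (18.0%, against 12.2% of all genes), and over both CPIP groups 12 (19.7%, against 11.8%). The median log2 fold change over both CPIP groups was -0.01, and the values ran from -0.42 for Sox8 to 0.53 for Batf3.

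In each family the relative with the smallest p over both CPIP groups missed the threshold. Batf3, an AP-1 factor of immune cells, averaged 0.85, 1.22 and 1.71 FPKM in Sham, CPIP and CPIP+EA (adjusted p = 0.141, limma). Creb3, a factor held in the endoplasmic reticulum membrane and cut free under stress, had 73.11, 84.63 and 85.98 FPKM (adjusted p = 0.1341, limma). Cebpg, a C/EBP protein that binds other leucine zipper factors, had 17.89, 19.31 and 20.52 FPKM (adjusted p = 0.293, limma). For Mycl the means were 0.98, 1.36 and 1.28 FPKM, for Klf5 they were 11.37, 10.04 and 7.95 FPKM, and for Sox8, a factor of glia, 2.12, 1.44 and 1.52 FPKM, with adjusted p of 0.2446, 0.4299 and 0.4141 in limma. Fos, the usual partner of c-Jun and named here after its values were seen, stood at 4.21, 3.50 and 4.08 FPKM with an adjusted p of 0.8917 (limma).

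**Figure D4:**
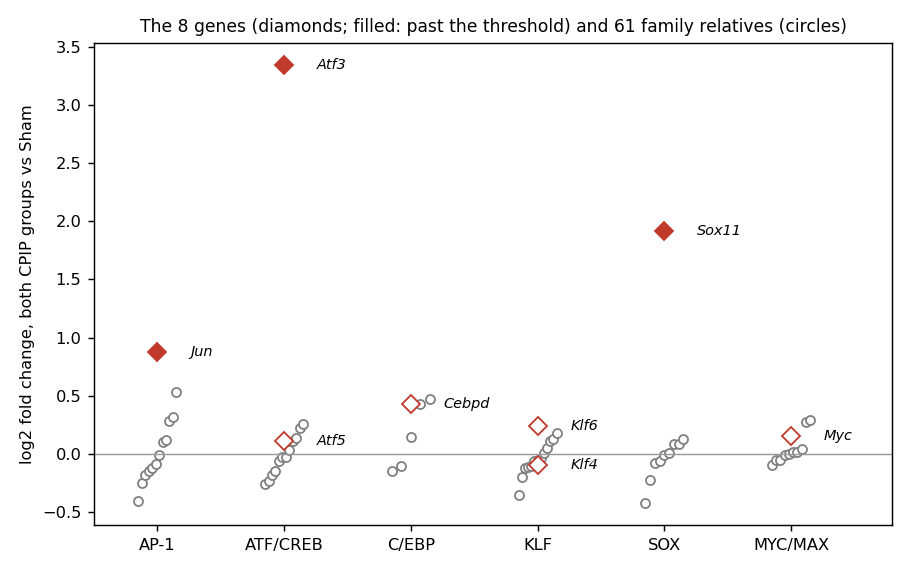
Log2 fold change of both CPIP groups vs. Sham (vertical axis) for the 8 genes (red diamonds, filled where called) and 61 relatives in 6 families (grey circles). Atf3 (3.35), Sox11 (1.91) and Jun (0.87) stand above the relatives, which lie between -0.42 and 0.53.

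Upstream of c-Jun, the transcripts of 12 genes of the DLK and JNK cascade were measured and none was called. Map3k12, which encodes DLK and is named here after its values were seen, averaged 18.10, 18.50 and 17.91 FPKM in the 3 groups. Map2k4, a kinase that activates JNK, had the smallest p, with 60.35, 54.41 and 58.95 FPKM (adjusted p = 0.507 over both CPIP groups, limma). Transcript levels say nothing of kinase activity, which was not measured.

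Among 15 other transcription factors and cofactors linked to injury and regeneration, 1 was called higher in CPIP vs. Sham (against 0.343% of all genes), 2 in CPIP+EA vs. Sham (against 0.477%) and 2 over both CPIP groups (against 0.564%), with 0 lower. Ankrd1, a nuclear cofactor best known from stressed muscle and heart, had 0.03, 0.27 and 0.07 FPKM in Sham, 2.14, 2.09 and 2.38 FPKM in CPIP, and 2.93, 2.79 and 2.59 FPKM in CPIP+EA. It was near 0 in Sham, and the other libraries all lay far above. Over both CPIP groups its adjusted p was 3.494e-05 (limma), and it was called in each comparison with Sham under every alternative. The summed markers of skeletal muscle were 7.65 to 12.06 FPKM in Sham, 6.68 to 98.95 in CPIP and 10.69 to 31.56 in CPIP+EA. Their part in the level of Ankrd1 was not tested. Smad1, a transducer of BMP signals, averaged 8.88, 13.58 and 14.42 FPKM, with a log2 fold change over both CPIP groups of 0.63 ± 0.07 (SE, adjusted p = 0.003534, limma). In CPIP vs. Sham Smad1 missed the threshold, at an adjusted p of 0.01838 (limma), and its call over both CPIP groups was lost in 8 of 18 alternatives. Without Sham library 1, 2 or 3 the adjusted p of that comparison was 0.02216, 0.01519 or 0.02114, and without CPIP library 2 or CPIP+EA library 2 it was 0.01154 or 0.01244. In CPIP+EA vs. Sham the call of Smad1 was lost in 13 of 19 alternatives, among them each library left out save CPIP library 3, with adjusted p from 0.01149 without CPIP+EA library 3 to 0.03328 without CPIP+EA library 2.

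Of 25 genes that are commonly raised in axotomized sensory neurons, several of them bound by ATF3 or c-Jun, 15 were called higher in CPIP vs. Sham (against 0.343% of all genes) and 0 lower. In CPIP+EA vs. Sham 15 were called higher (against 0.477%), over both CPIP groups 17 (against 0.564%), and in CPIP+EA vs. CPIP 0. Over the alternatives these counts were 10 to 15, 11 to 16, 13 to 17 and 0. Their median log2 fold change was 1.15 in CPIP vs. Sham, 1.25 in CPIP+EA vs. Sham and 0.06 in CPIP+EA vs. CPIP, beside -0.01, 0.00 and 0.01 over all genes. Those not called in CPIP vs. Sham included Il6 and Lif, cytokines of injured nerve, at log2 fold changes of 0.66 and 0.35. Of the 25, 3 had a log2 fold change below 0 in CPIP vs. Sham. Among these, Nrn1, which encodes neuritin, a promoter of neurite growth, was lower in every CPIP and CPIP+EA library than in every Sham library, at 146.66 to 164.26 against 179.90 to 184.51 FPKM, an order met by 3.22% of all genes. Its log2 fold change over both CPIP groups was -0.23 ± 0.05 (SE, unadjusted p = 0.001638, adjusted p = 0.07688, limma) and was not called. Il6, Lif and Nrn1 are named here after their values were seen. The list was drawn up with earlier results of these libraries known and is no independent evidence of its direction.

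Gal, the neuropeptide galanin, rose from 5.13 FPKM in Sham to 42.06 in CPIP and 58.73 in CPIP+EA. Its Sham libraries had 4.66 to 5.40 FPKM, its CPIP libraries 37.03 to 48.14 and its CPIP+EA libraries 52.86 to 62.97, with every CPIP+EA library above every CPIP library, as for 4.84% of all genes. The log2 fold change between them was 0.48 ± 0.11 (SE) and was not called in limma (adjusted p = 0.9693). Vip, the vasoactive intestinal peptide, went from 0.15 FPKM to 13.46 and 18.11, and Sprr1a, a small proline-rich protein that promotes axon outgrowth, from 0.03 to 3.07 and 3.21. Gadd45a, a stress and DNA repair gene, rose from 20.93 FPKM to 56.11 and 62.26. In limma the adjusted p over both CPIP groups was 1.304e-06 for Gal, 3.027e-06 for Vip, 3.802e-06 for Sprr1a and 4.686e-06 for Gadd45a.

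The genes whose values over the 9 libraries ran most like those of the 3 called factors were sought among the 13914 genes that averaged an FPKM of 1 or more. Likeness was the mean absolute difference of z-scores of log2(FPKM + 0.5), where 0 means the same profile. It is a description that is set largely by the gap between Sham and the CPIP groups, and all genes share the same libraries. For Atf3 the 3 closest were Gadd45a (0.039), Ankrd1 (0.060) and Sprr1a (0.060), which all belong to the lists above. Those lists were drawn up with earlier results known, so this adds no support. Ankrd1 and Sprr1a averaged 0.12 and 0.03 FPKM in Sham and met the limit of 1 FPKM only through the CPIP groups. For such genes the limit itself favors a profile that is low in Sham. Gadd45a had 20.10, 22.14 and 20.56 FPKM in Sham, 55.89, 52.29 and 60.14 FPKM in CPIP, and 65.94, 63.15 and 57.69 FPKM in CPIP+EA. As with Atf3, its Sham library 2, CPIP library 3 and CPIP+EA libraries 1 and 2 were the high ones of their groups. That match follows from the choice of Gadd45a by likeness and is no further result.

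For Jun the closest were Sema6a (0.117), a transmembrane semaphorin of axon guidance, Adcyap1 (0.135), which encodes the neuropeptide PACAP, and Itga7 (0.136), a laminin receptor subunit. Adcyap1 averaged 22.92, 43.77 and 46.33 FPKM in Sham, CPIP and CPIP+EA, close to Jun in level as well as in pattern. Sox11 was followed by Cdhr5 (0.072), a protocadherin, Cacna2d1 (0.0997), the calcium channel subunit that binds gabapentin, and Cldn4 (0.106), a tight junction protein. Cacna2d1 averaged 27.89, 70.37 and 77.72 FPKM, while Cdhr5 and Cldn4 were low, at no more than 1.61 and 2.03 FPKM on average in any group. In Sham, Cdhr5 and Cldn4 averaged 0.73 and 0.11 FPKM, so they too met the limit of 1 FPKM only through the CPIP groups. Among the genes closest to Atf3, Sox11 ranked 26 and Jun 49, whereas Klf6 ranked 459 and Klf4 7101.

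Markers of the cell types that a ganglion could hold were set beside these results. Of 43 marker genes for 9 cell types none was called in any comparison. Summed neuron markers were 1.07 times the Sham level in CPIP and 1.12 times in CPIP+EA. The sum hid opposite values, since Tubb3, a neuronal tubulin, had 1078.69 to 1299.21 FPKM in Sham and 1358.52 to 1816.74 in the other libraries, while Rbfox3, which encodes NeuN, had 46.70 to 57.33 and 27.47 to 42.92. Prph was likewise higher, at 1092.13 to 1365.05 against 919.91 to 1043.59 FPKM in Sham. Snap25 was lower, at 529.09 to 605.34 against 610.09 to 668.7 FPKM in Sham. Such a gap was met upward by 4.05% and downward by 3.22% of all genes. None of these markers passed the test, and the scale of neuron markers is built in part on them. In CPIP and CPIP+EA the sums were 0.95 and 0.99 times Sham for satellite glia, 1.09 and 0.77 for Schwann cells, 1.08 and 1.16 for macrophages, 1.11 and 1.09 for endothelium, and 0.84 and 0.69 for fibroblasts and meninges. All 4 Schwann cell markers had lower means in CPIP+EA than in CPIP, at log2 fold changes of -0.58 to -0.42. For erythroid cells the ratios were 0.64 and 1.24, and for neutrophils 1.39 and 2.74, with 586.75 FPKM in CPIP+EA library 3 against at most 234.64 elsewhere. For skeletal muscle they were 4.32 and 2.21, with 98.95 FPKM in CPIP library 2 against at most 31.56 elsewhere. Without CPIP library 2, or without CPIP+EA library 3, Atf3 and Sox11 kept their calls in each comparison with Sham. Jun kept its call over both CPIP groups and lost it in the single comparisons, at an adjusted p in limma of 0.02923 and 0.01126 in CPIP vs. Sham and 0.01058 and 0.01137 in CPIP+EA vs. Sham. The part of these cell types in the results was not tested.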

How the data were processed

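RNA-Seq of ipsilateral L4-6 DRGs was made from 3 rats in each of the Sham, CPIP and CPIP+EA groups, and groups and replicate numbers followed the repository's labels. Poly(A) RNA was sequenced as single reads on a BGISEQ-500, and reads were filtered with SOAPnuke. For each gene the authors deposited its FPKM in every library, rounded to 2 decimals. The aligner, genome build and annotation are not given in the sources used here. FPKM keeps no count of reads, so depth per gene is unknown and no interval for counting error can be given. The summed FPKM per library was 445647 to 482940, with 18279 to 18456 genes above 0. The 9 deposited columns of comparisons between groups (log2 ratios, P and Q values) were not used. Every column of values per sample was matched to a library.

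Log2(FPKM + 0.5) was modelled in limma (version 3.58.1, R 4.3.3) with all 9 libraries in 1 fit, no covariate, a mean-variance trend and two-sided p-values adjusted by the Benjamini-Hochberg method over the 17187 genes that averaged 0.1 FPKM or more. Called genes had an adjusted p under 0.01 and a fold of at least 1.5, the threshold of the study. The steps were tested on simulated data. Libraries of 1 group come from separate rats. The comparison of both CPIP groups with Sham is not independent of the others, and all comparisons with Sham share its libraries. Of the lists, genes called in any comparison were named (at most 4, by p over both CPIP groups), or else the gene with the smallest p. Likeness named 3 genes for each called factor. The 8 genes, the lists and the markers were chosen with earlier results of these data known. Alternatives were other pseudocounts, filters, scales, fits and thresholds, a replicate block and each library left out. A scale of neuron markers was added after values were seen. Tables were made with Python 3.11.15, pandas 2.3.3 and numpy 2.4.6, and figures with matplotlib 3.10.9.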

Additional observations from a re-analysis of the deposited data

How the results depend on the processing

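Of 600 values of single genes under an alternative (8 genes, 4 comparisons), 545 kept their direction and their side of the threshold, 33 lost a call (Jun and Sox11, as given above) and 22 turned sign, all of them among genes and comparisons that were not called. For Klf4 in CPIP vs. Sham the log2 fold change was -1e-04 with a pseudocount of 1, -0.0067 after quantile normalization, -0.0048 on a TPM scale and -0.0858 on the scale of neuron markers, and -0.2235 to 0.1881 with 1 library left out. On the scale of neuron markers, which moved the median of all genes to -0.041, -0.134 and -0.115 in CPIP+EA vs. CPIP, CPIP+EA vs. Sham and both CPIP groups vs. Sham, the first comparison gave -0.0068 for Jun and -0.0043 for Sox11, the second -0.0115 for Myc and -0.0572 for Atf5, and the third -0.0195 for Atf5. With 1 library left out, CPIP+EA vs. CPIP ran from -0.0317 to 0.1086 for Jun, -0.1476 to 0.2449 for Sox11, -0.1117 to 0.0066 for Myc, -0.1459 to 0.0944 for Cebpd and -0.0776 to 0.0496 for Atf5, and both CPIP groups vs. Sham from -0.3256 to 0.086 for Klf4.

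Deviations of same-numbered libraries from their group means correlated at -0.236 to 0.297, with 2 of 9 pairs over 0.1. Those of libraries with different numbers correlated at -0.223 to 0.28. With 3 libraries in each group, these values cannot tell whether the numbers pair the rats. With a replicate block, genes called went from 61 to 26 in CPIP vs. Sham, from 83 to 42 in CPIP+EA vs. Sham and from 103 to 63 over both CPIP groups, and 1 of the 8, Atf3, was called in place of 3 in each of the first 2 comparisons. Fitting only the groups compared called 1 gene in CPIP+EA vs. CPIP and 46 in CPIP+EA vs. Sham. At an adjusted p under 0.05 with no fold, 122, 226 and 274 genes were called in CPIP vs. Sham, CPIP+EA vs. Sham and both CPIP groups vs. Sham, and with a fold of at least 1.5 these were 102, 163 and 166. With 1 library left out, genes called ran from 30 to 62 in CPIP vs. Sham, 0 to 2 in CPIP+EA vs. CPIP, 35 to 82 in CPIP+EA vs. Sham and 55 to 107 over both CPIP groups. The low counts came without Sham library 2 or CPIP library 3 (30 each), without CPIP+EA library 2 (35) and without Sham library 2 (55). Of the 8 genes, 1 to 3 were called in CPIP vs. Sham and in CPIP+EA vs. Sham, and 2 to 3 over both CPIP groups. The cause of these shifts was not tested. Depth behind single values is unknown, since FPKM holds no counts.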
